A study of Mus musculus with 514 samples.

Results

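Cholesterol synthesis and handling is described here by 30 genes, taken by gene name from the 55168 named genes of the full-length expression table, in which all 30 were found. They comprise 19 genes of synthesis, 5 regulators and 6 genes of uptake, transport and storage. Each library was made from the polyadenylated RNA of a single mouse oocyte or embryo, and 263 full-length libraries in 22 groups were used out of 514 samples in the series. Reads were divided by the submitters into those that cover whole transcripts and those that carry a unique molecular identifier (UMI) at the 5′ end; the 110 UMI libraries, in 14 groups, carry the same embryo and date labels and are a second reading of embryos at 3 stages, not further embryos.

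The study removed 2 orphan nuclear receptors, Nr5a2 (NrKO) and Esrrb (EKO), or both (DKO). The prefixes mz, m and z state that the knockout was maternal and zygotic, maternal only or zygotic only. Controls were heterozygous for the Nr5a2 deletion (NrHet) or for both deletions (DHet), so that they carry deleted alleles as well, or had only wild-type or floxed alleles (Nrpp). Mature (MII) oocytes were of genotype Nrpp (n = 9), NrHet (n = 18) and NrKO (n = 12). Early 2-cell (E2C) embryos were mz_Nrpp (n = 21), mz_NrHet (n = 29), mz_NrKO (n = 22), z_NrKO (n = 12) and m_NrKO (n = 18). Late 2-cell (L2C) embryos were mz_DHet (n = 7), mz_EKO (n = 10), mz_NrKO (n = 10), mz_DKO (n = 6), z_NrHet (n = 7) and z_NrKO (n = 6). At the 4-cell stage (4C) there were 6 mz_DHet, 4 mz_EKO, 5 mz_NrKO and 10 mz_DKO embryos, and at the 8-cell stage (8C) 21 mz_DHet and 10 embryos of each mz knockout. All libraries came straight from the embryo (ex vivo) with no treatment; the strain, the age of the mothers and the driver of the deletion are not given in the sources used here, and no mother or litter is named, so the p-values measure the spread between single embryos.

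Cells build cholesterol from acetyl-CoA through mevalonate, which is turned into isoprenoid diphosphates, joined to squalene, closed into lanosterol and then trimmed to cholesterol. When membrane cholesterol is low, the chaperone Scap carries the SREBP transcription factors (from Srebf1 and Srebf2) out of the endoplasmic reticulum to be cut, and they switch on most genes of the pathway; the Insig proteins hold Scap back when sterols are plentiful. In the mouse ovary the oocyte is known to make little cholesterol and to rely on the cumulus cells around it, and Nr5a2 is known in liver and steroid-producing tissues for its role in bile acid synthesis, steroid synthesis and cholesterol uptake through Scarb1.

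Levels are transcripts per 1000000 (TPM), a scale that corrects for transcript length, so genes can be compared with each other; TPM keep no read counts and the read depth is unknown. Between 10655 and 15971 genes exceeded 1 TPM per library. Each level stands for a whole embryo, so fewer expressing cells and less RNA per cell cannot be told apart. Log2 fold changes are on log2(TPM + 1), with their standard error, and adjusted p-values are from limma with Benjamini-Hochberg adjustment over all genes tested; a gene is called at an adjusted p under 0.05. The deposited gene level of Nr5a2 was not lower in the 8C embryos labelled mz_NrKO (median 656 TPM, against 485 TPM in mz_DHet), and values per gene cannot show whether targeted exons were missing. Primers for genotyping were present during amplification, per the labels. Esrrb had a median of 20.3 TPM in 8C embryos labelled mz_EKO and of 48.7 TPM in mz_DHet, and in the UMI reads of 1.67 and 43.8 TPM. Of 12 cumulus and granulosa markers, the summed level had a median of 112 TPM in Nrpp oocytes (62.6 to 154) and of 0.58 TPM in 8C mz_DHet embryos (0 to 3.68), where 6 of the 12 were listed at 0 in every embryo. In the Nrpp oocytes 8 of the 12 averaged under 1 TPM and 3 were listed at 0 in each, so the remaining few made up most of the sum. One E2C embryo, mz_NrKO replicate 1, stood apart from the others, with the lowest summed TPM of all libraries.

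Before any knockout, the pathway was unevenly stocked in the oocyte. The highest levels were those of 2 of the 5 regulators: Insig1 had a median of 1701 TPM in 9 Nrpp oocytes (1350 to 1952) and Scap of 502 TPM (331 to 636). The other regulators were lower, with medians of 29.9 TPM for Srebf2, 13.2 TPM for Srebf1 and 8.35 TPM for Insig2, while Sc5d, a desaturase of the late pathway, had 341 TPM. Several early enzymes were close to 0 in the same oocytes. Mvk, mevalonate kinase, was listed at 0 in 8 of the 9, and Fdft1, the squalene synthase that commits isoprenoids to sterols, had a median of 4.40 TPM (1.86 to 7.40). Ebp, the isomerase of the late pathway, had a median of 0.55 TPM. Hmgcs1, which makes the substrate for mevalonate, was already at 254 TPM (91.7 to 469.6). Abca1, the cholesterol exporter, averaged between 0 and 1.11 TPM in the control group of each stage and was tested at none.

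**Figure D1:**
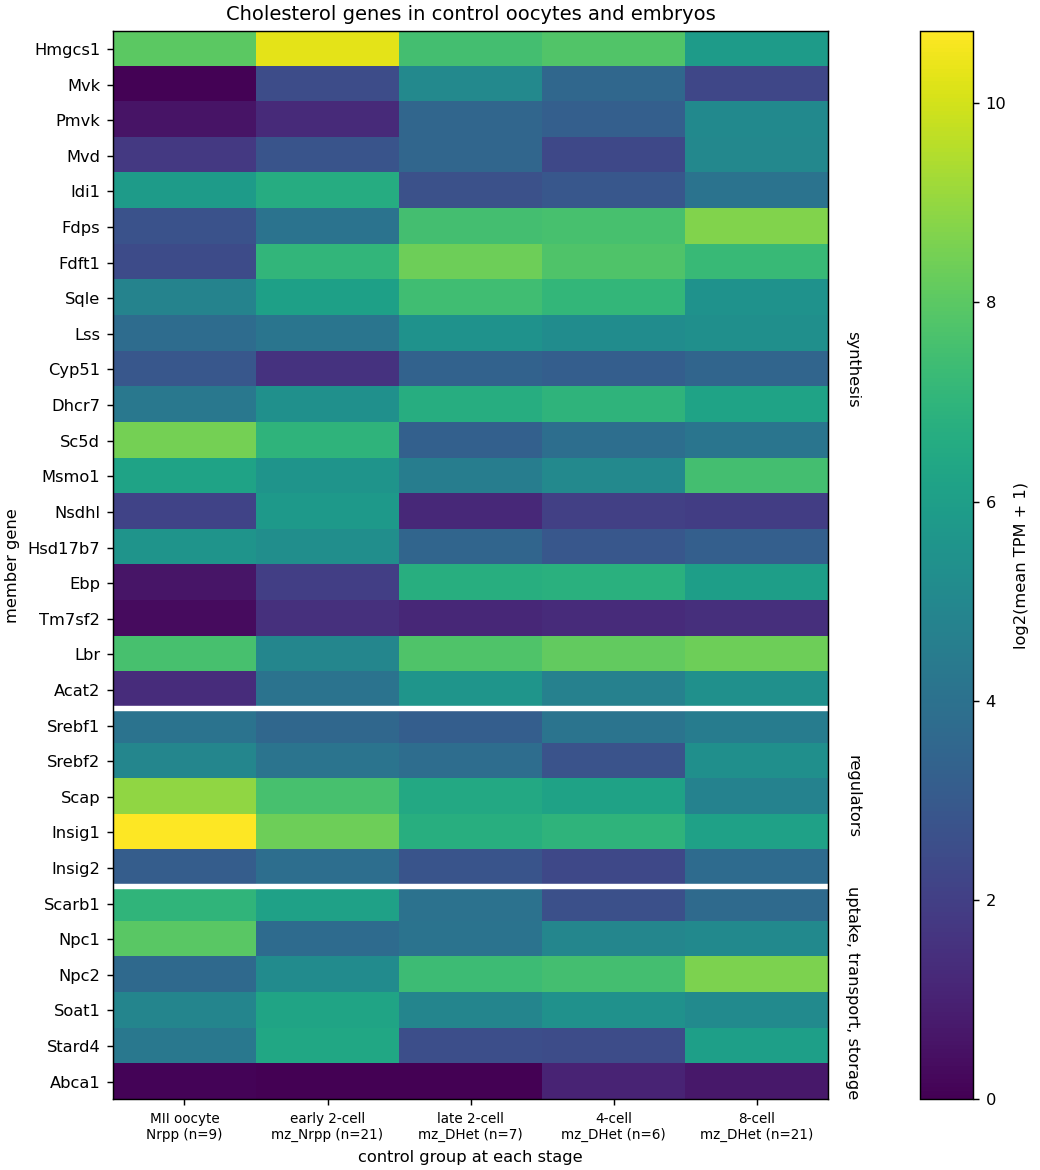
Mean level of each of the 30 genes in the control group of each stage, as log2(mean TPM + 1) in colour, with 9 Nrpp oocytes, 21 mz_Nrpp E2C embryos and 7, 6 and 21 mz_DHet embryos at L2C, 4C and 8C. Insig1 and Scap are brightest in the oocyte, Hmgcs1 at E2C, and Fdps, Npc2 and Lbr are among the brightest at 8C.

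From oocyte to early 2-cell embryo (mz_Nrpp against Nrpp), more enzymes rose than fell, and the regulators that passed the test fell. Of 29 genes tested, 14 rose and 8 fell, where 41.9% of all 21033 genes tested were called (32.2% rose and 9.76% fell). Among the 19 synthesis genes 11 rose and 3 fell, with a median log2 change of 1.08 against 0.28 over all genes, and of the 5 regulators none rose and 3 fell. Fdft1 went from a median of 4.40 TPM to one of 134 TPM (80.2 to 180.3 in 21 embryos), a log2 fold change of 4.64 ± 0.20 (adjusted p = 1.59e-60). No E2C embryo overlapped the oocytes for this gene, and the share of all genes without overlap was not computed for this step. Hmgcs1 rose to a median of 1198 TPM (1056 to 1636), by 2.49 ± 0.23 on the log2 scale. Nsdhl, a demethylation enzyme of the late pathway, rose from 3.46 ± 2.39 to 53.2 ± 14.9 TPM (mean ± SD). In the other direction, Insig1 fell by 2.35 on the log2 scale, to a median of 329 TPM (253 to 402), and Npc1, which exports cholesterol from lysosomes, fell by 4.38, from 255 ± 52.8 to 12.6 ± 6.56 TPM. Stage and collection date cannot be told apart here, in the next step or from 4C to 8C, since the control groups compared share no date; from L2C to 4C they share 22 May 2022, with 5 of 7 and 1 of 6 embryos, and these steps were fitted without date.

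From early to late 2-cell embryo (mz_DHet at L2C against mz_NrHet at E2C, which also differ in genotype), 12 genes rose and 12 fell of 29, where 65.6% of all genes were called (31.7% rose and 33.8% fell). The enzymes moved in both directions. Ebp rose by 4.88 ± 0.39 on the log2 scale, to a median of 62.5 TPM (23.5 to 247 in 7 embryos), and Fdps, the farnesyl diphosphate synthase, rose by 3.42 ± 0.32 to a median of 162 TPM. Nsdhl fell by 4.94 on the log2 scale to a mean of 1.34 TPM, and Idi1, the isopentenyl diphosphate isomerase, fell by 4.11 to 5.23 TPM. Hmgcs1 fell by 2.74 to a median of 176 TPM, and Sc5d fell by 4.02. Outside synthesis, Stard4, which carries cholesterol between membranes, fell by 3.94 to a median of 1.69 TPM. Npc2, the partner of Npc1 in the lysosome, rose by 2.32 to a median of 148 TPM.

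From L2C to 4C a single gene was called of 29, where 7.3% of all genes were: Mvd, the mevalonate diphosphate decarboxylase, fell by 1.73 ± 0.55 on the log2 scale (adjusted p = 0.032), and with a pseudocount of 0.1 TPM it was not called (adjusted p = 0.063). From 4C to 8C, 10 genes rose and 8 fell, where 46.1% of all genes were called (14.1% rose and 32% fell). Scaling by median-of-ratios factors, which moved the median change of all genes from -0.27 to -0.06, turned this into 13 that rose and 3 that fell. The strongest gains were those of Stard4 (3.80 ± 0.43), which went from a median of 3.07 to 57.8 TPM, of Mvd (3.32 ± 0.46), from 1.40 to 31.3 TPM, and of Msmo1 (2.57 ± 0.40), the methylsterol monooxygenase, from 30.3 to 160.4 TPM. These 3 rose under both scalings. Hmgcs1 fell by 2.04 to a median of 53.8 TPM and Sqle, the squalene epoxidase, fell by 1.75 to 35.9 TPM. At 8C the highest of the 30 in mz_DHet embryos were Fdps (412 ± 182 TPM), Npc2 (388 ± 83.0 TPM), Lbr (324 ± 129 TPM), a nuclear envelope protein that also reduces sterols, and Msmo1 (185 ± 60.6 TPM).

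At 8C, Fdft1, Msmo1, Lss, Mvd and Hsd17b7 were the synthesis genes that were lower in mz_NrKO embryos, and Lbr was higher. Sqle, which acts between Fdft1 and Lss, was not called (0.22, 95% interval -0.35 to 0.80), nor was Cyp51, the lanosterol demethylase (0.66, 0.06 to 1.26, adjusted p = 0.093). In mz_NrKO embryos 2 of 27 genes tested were higher and 9 lower than in mz_DHet, a share of 40.7% where 28.3% of all 10876 genes were called (14.1% higher and 14.2% lower). The median log2 fold change of the 27 was -0.33, against 0.00 (0.005) over all genes. Of 17 synthesis genes tested, 5 were lower and 1 higher; of 5 regulators, 2 were lower and 1 higher; of 5 handling genes, 2 were lower and none higher. Nsdhl, Tm7sf2 and Abca1 were too low to be tested. No gene of the 27 had groups that did not overlap at all, and such genes made up 0.0276% of all genes.

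Fdft1 (mm10 chromosome 14, 63145150 to 63179578) had the smallest adjusted p. Its lowest, median and highest values were 44.5, 138 and 273 TPM in 21 mz_DHet embryos and 18.9, 41.3 and 60.5 TPM in 10 mz_NrKO embryos. Every mz_NrKO embryo lay below the control median, and only the lowest controls reached into the mutant range. The log2 fold change was -1.64 ± 0.21 (adjusted p = 3.55e-08), or 3.12-fold lower. On 8 March 2022 the 6 mz_NrKO embryos (39.7 to 60.5 TPM) lay wholly below the 15 mz_DHet embryos (74.7 to 272.6 TPM), and the fold change of that date alone was -1.62; on 15 July 2022 it was -1.90, with 18.9 to 28.8 TPM in 3 mz_NrKO and 52.0 to 137.9 TPM in 4 mz_DHet embryos. In the UMI reads it was -1.69 (adjusted p = 0.000372). At 8C those reads cover 16 mz_DHet and 5 mz_NrKO embryos, none of them of 15 July. The share of all genes without overlap on a single date was not computed.

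Msmo1 had 128, 160.4 and 357 TPM as its lowest, median and highest values in mz_DHet and 63.5, 82.4 and 143 TPM in mz_NrKO embryos, all 10 below the control median. The log2 fold change was -0.97 ± 0.16 (adjusted p = 4.42e-06). Lss, which closes squalene epoxide into lanosterol, had medians of 34.9 TPM (16.7 to 95.6) and 16.5 TPM (1.79 to 40.0) in the same groups, with 8 of 10 mutants below the control median and a fold change of -1.05 ± 0.27 (adjusted p = 0.0025). Mvd had medians of 31.3 TPM (17.3 to 45.2) and 13.6 TPM (5.17 to 40.5) and a fold change of -0.97 ± 0.25 (adjusted p = 0.0023). The ranges of all 3 overlapped, and the highest mutants for Lss and Mvd lay above the control median. On 8 March alone Msmo1, Lss and Mvd were called (-1.15, -1.17 and -0.95), and on 15 July alone none of the 3 was (-0.79, -0.93 and -1.52; adjusted p = 0.083, 0.168 and 0.057). In the UMI reads Lss and Mvd were not called (-0.30, adjusted p = 0.580, and -0.67, adjusted p = 0.131). Hsd17b7, a ketoreductase of the late pathway, was also lower, by -1.09 ± 0.29 (adjusted p = 0.0032), at 3.43 ± 1.88 against 8.56 ± 3.53 TPM, a call lost in 2 of 8 alternative settings (-1.72 to -0.62 over all 8); its level was under the 10 TPM set for naming and it was named after its values were seen. Lbr was higher (0.46 ± 0.17, adjusted p = 0.038), but its level depended on the date: it ran from 72.3 to 141.6 TPM in the 4 controls of 15 July and from 289 to 425 TPM in the 15 of 8 March, and it was not called on either date alone (adjusted p = 0.050 and 0.152). In all, the call was lost in 6 of 8 alternative settings, with fold changes from 0.09 to 1.49.

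**Figure D2:**
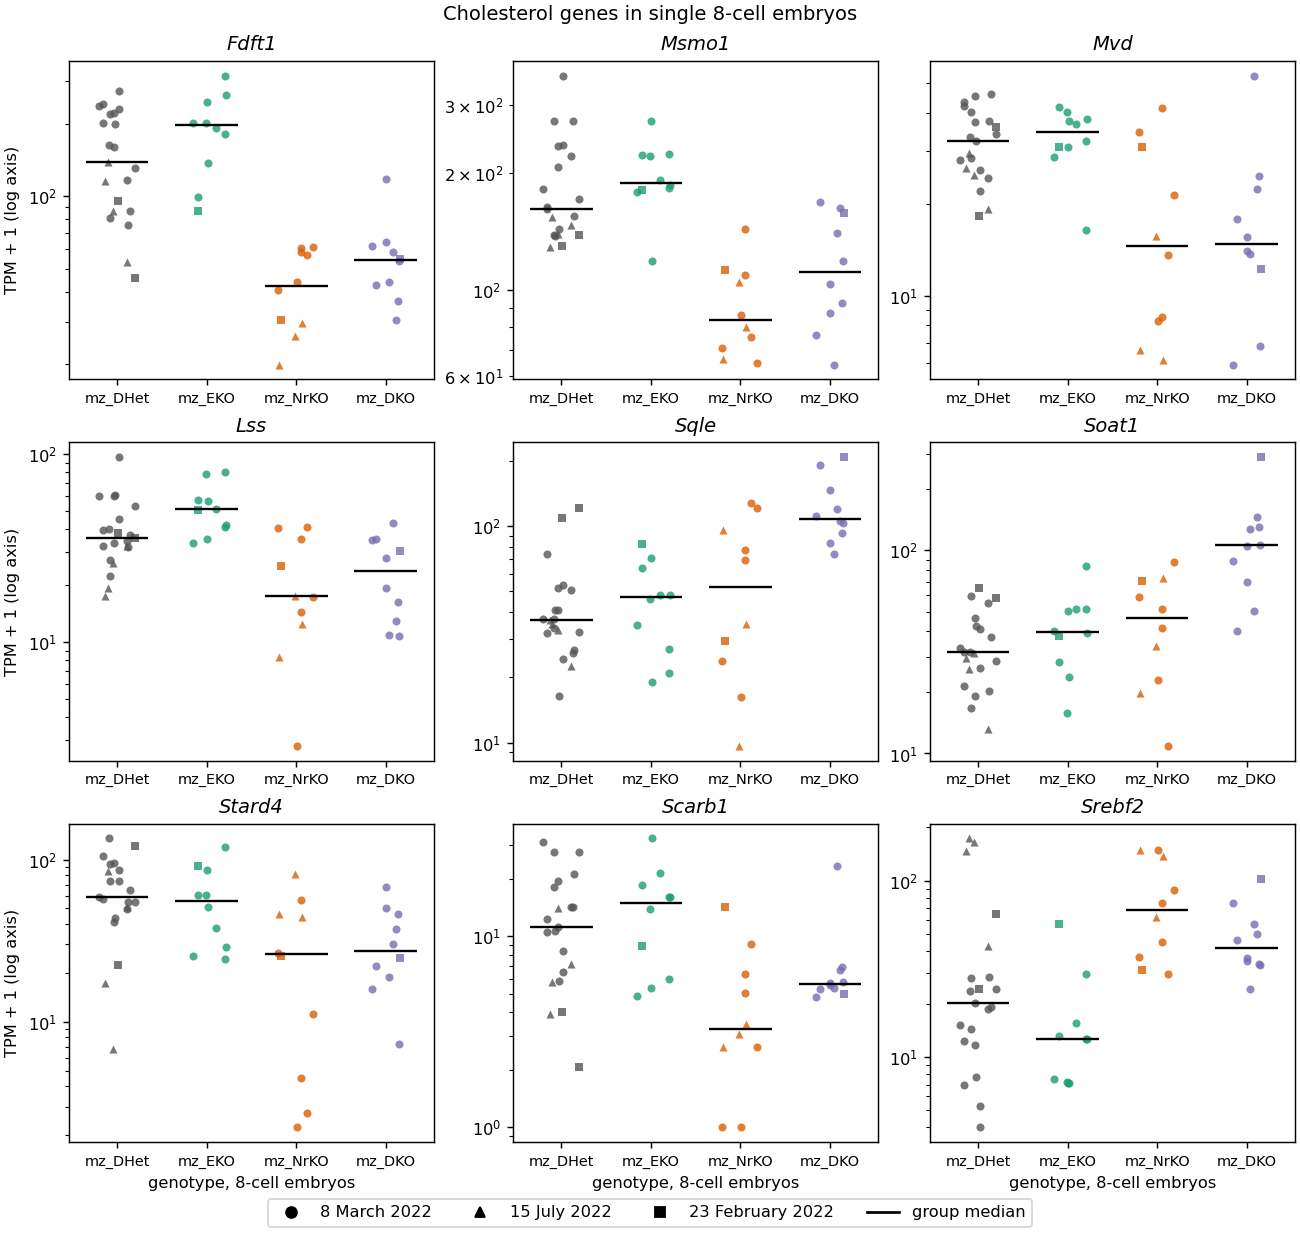
Each point is 1 embryo at 8C, as TPM + 1 on a log axis, with the marker giving its collection date and the line the group median, for 9 of the 30 genes in 21 mz_DHet and 10 embryos of each knockout. Fdft1 and Msmo1 are low in mz_NrKO and mz_DKO, Sqle and Soat1 are high in mz_DKO, and Srebf2 is higher in the 4 mz_DHet embryos of 15 July than in the 15 of 8 March.

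The sequences around the start sites of the 4 fallen enzymes that have an entry in the RefSeq promoter table (GRCm38.p6) are shown, with a short motif marked. Of the 30 genes, 24 have an entry, with 32 windows of 300 bases in all; Fdps, Fdft1, Sqle, Scarb1, Npc1 and Stard4 have none. CCAAT, the letters bound by NF-Y, which is known to act beside SREBPs at sterol genes, was searched on both strands and was present in at least 1 window of 21 of the 24 genes. Those 21 include Lbr and Srebf2, which were higher in mz_NrKO at 8C, and Npc2, which was not called. By window, 68.8% of the 32 held it, against 37.4% of all 32851 windows and 38.9% of the windows of genes tested at 8C. The windows are chr8:64733529-64733828 (minus strand) for Msmo1, chr8:122443373-122443672 (minus strand) for Mvd, chr10:76531355-76531654 (plus strand) for Lss and chr1:169969156-169969455 (minus strand) for Hsd17b7, each read 5′ to 3′ along the gene. Capitals mark CCAAT or its reverse complement ATTGG, of which Msmo1 and Hsd17b7 hold 3, Mvd 2 and Lss 1.
Msmo1: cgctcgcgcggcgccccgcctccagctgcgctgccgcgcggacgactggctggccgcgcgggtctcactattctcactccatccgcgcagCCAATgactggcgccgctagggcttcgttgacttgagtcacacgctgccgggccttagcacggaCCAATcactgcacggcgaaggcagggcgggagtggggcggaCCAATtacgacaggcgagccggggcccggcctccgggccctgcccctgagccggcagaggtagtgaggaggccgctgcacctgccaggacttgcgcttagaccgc
Mvd: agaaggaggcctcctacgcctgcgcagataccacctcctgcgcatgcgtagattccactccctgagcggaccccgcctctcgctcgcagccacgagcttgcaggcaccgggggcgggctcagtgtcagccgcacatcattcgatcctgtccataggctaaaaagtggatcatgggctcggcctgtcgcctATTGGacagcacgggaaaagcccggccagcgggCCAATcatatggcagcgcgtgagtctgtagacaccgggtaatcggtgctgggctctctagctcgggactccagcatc
Lss: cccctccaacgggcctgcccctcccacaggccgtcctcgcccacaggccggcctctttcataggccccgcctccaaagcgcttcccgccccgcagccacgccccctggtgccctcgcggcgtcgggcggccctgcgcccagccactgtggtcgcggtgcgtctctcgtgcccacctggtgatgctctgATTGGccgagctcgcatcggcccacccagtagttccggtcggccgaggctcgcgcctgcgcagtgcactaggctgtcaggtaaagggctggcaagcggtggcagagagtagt
Hsd17b7: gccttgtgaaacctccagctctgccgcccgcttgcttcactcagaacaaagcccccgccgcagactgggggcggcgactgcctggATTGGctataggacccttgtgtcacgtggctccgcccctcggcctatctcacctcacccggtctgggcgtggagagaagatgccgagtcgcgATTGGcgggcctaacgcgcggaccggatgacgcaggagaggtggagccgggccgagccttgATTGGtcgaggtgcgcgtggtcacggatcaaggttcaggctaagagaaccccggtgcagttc
The remaining motifs were rare. TCACNCCAC, an SREBP recognition element, was present in 1.24% of all windows and in 1 of the 32, that of Hmgcs1, which was not called in any 8C knockout. CAAGGTCA, the letters that Nr5a2 and Esrrb are both known to bind, was present in 1.56% of all windows and in 1 of the 32, that of Dhcr7, the last reductase of the pathway; the related CAAGGCCA was in 2.40% of all windows and in none of the 32. The windows of Hmgcs1, at chr13:119690101-119690400 (plus strand), and Dhcr7, at chr7:143822917-143823216 (plus strand), are given with those letters in capitals, as read on either strand.
Hmgcs1: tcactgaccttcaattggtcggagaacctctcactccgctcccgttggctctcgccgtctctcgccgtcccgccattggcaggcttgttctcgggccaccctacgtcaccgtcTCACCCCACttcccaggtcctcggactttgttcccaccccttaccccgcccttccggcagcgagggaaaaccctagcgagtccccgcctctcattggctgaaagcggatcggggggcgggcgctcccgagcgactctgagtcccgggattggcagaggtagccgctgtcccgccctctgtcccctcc
Dhcr7: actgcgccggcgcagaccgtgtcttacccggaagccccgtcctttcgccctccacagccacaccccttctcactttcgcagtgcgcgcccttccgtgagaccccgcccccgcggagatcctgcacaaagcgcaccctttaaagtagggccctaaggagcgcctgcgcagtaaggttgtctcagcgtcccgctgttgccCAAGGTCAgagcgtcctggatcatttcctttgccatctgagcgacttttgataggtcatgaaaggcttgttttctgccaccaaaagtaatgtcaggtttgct
A match is a run of letters only, and binding was not measured in the values used here.

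Among the regulators, Srebf2 was higher and Scap and Srebf1 lower in mz_NrKO embryos. Srebf2 had 3.00, 19.2 and 173 TPM as lowest, median and highest in mz_DHet and 28.7, 67.2 and 149 TPM in mz_NrKO, all 10 above the control median (1.303 ± 0.33, adjusted p = 0.0021). The result rested on 1 date. On 8 March the 15 controls ran from 3.00 to 27.5 TPM and the 6 mutants from 28.7 to 148.1 TPM, without overlap. The fold change of that date was 2.13 (adjusted p = 1.46e-05), and the share of all genes without overlap on it was not computed. On 15 July the 4 controls ran from 41.5 to 172.6 TPM and the 3 mutants from 60.9 to 148.8 TPM, a fold change of -0.09 (adjusted p = 0.931). In the UMI reads, which cover 5′ ends, Srebf2 was near 1 TPM in every group (median 0.82 TPM in mz_DHet and 1.17 TPM in mz_NrKO) and was not tested. Scap had medians of 25.2 TPM (7.30 to 46.8) in mz_DHet and 16.7 TPM (1.49 to 28.7) in mz_NrKO, a fold change of -0.84 ± 0.24 (adjusted p = 0.0052) that was not called on 8 March alone (adjusted p = 0.064) or in the UMI reads (adjusted p = 0.244). Srebf1 had medians of 21.8 TPM (7.01 to 36.4) and 14.4 TPM (2.32 to 33.8), a fold change of -0.68 ± 0.26 (adjusted p = 0.045) that was 0.01 in the UMI reads. The call was lost in 5 of 8 alternative settings, the UMI reads included. Insig1 and Insig2 were not called, at 0.28 (95% interval -0.14 to 0.70) and 0.26 (-0.47 to 0.98).

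Of the handling genes, Scarb1, the receptor that takes up cholesterol from high-density lipoprotein, had 1.06, 10.2 and 30.1 TPM as lowest, median and highest values in mz_DHet and 0, 2.27 and 13.2 TPM in mz_NrKO, with 9 of 10 mutants below the control median. It was lower by -1.502 ± 0.37 (adjusted p = 0.0016), at a low level throughout. Stard4 had 5.76, 57.8 and 134 TPM in mz_DHet and 1.23, 25.0 and 80.2 TPM in mz_NrKO (-1.74 ± 0.45, adjusted p = 0.0023). This too differed by date: on 8 March the 6 mutants had a median of 6.82 TPM against 63.8 TPM in controls (-2.97, adjusted p = 2.32e-06), and on 15 July the 3 mutants had 45.2 TPM against 33.0 TPM in 4 controls (1.05, adjusted p = 0.410). Npc2 was not called (0.02, 95% interval -0.16 to 0.20), and its medians were 396 TPM (192 to 538) and 374 TPM (206 to 546). Soat1, which esterifies cholesterol for storage, was not called (0.34, 95% interval -0.19 to 0.86).

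By median, the sums of markers of earlier stages were higher in mz_NrKO and mz_DKO than in mz_DHet embryos. The summed level of the 4 oocyte markers found in the table had a median of 18.8 TPM (3.32 to 58.0) in 8C mz_DHet, 58.5 TPM (9.40 to 149.1) in mz_NrKO and 93.3 TPM (20.2 to 145.9) in mz_DKO embryos. The sum of 4 markers of the early 2-cell stage had medians of 8.95 TPM (0 to 36.3), 79.3 TPM (0.95 to 197.2) and 96.2 TPM (16.4 to 724.8). That of 5 later cleavage markers had medians of 2435 TPM (1286 to 4329), 1933 TPM (1163 to 4385) and 1710 TPM (1273 to 2879), with ranges that overlapped. In mz_EKO embryos the 3 sums had medians of 18.4 TPM (4.74 to 41.6), 8.04 TPM (0.16 to 36.4) and 2680 TPM (2057 to 3151). In every 8C group 2 of the 4 oocyte markers averaged under 1 TPM. Of the 4 early 2-cell markers, 3 did so in mz_DHet, 3 in mz_EKO, 2 in mz_NrKO and 1 in mz_DKO. The part of these markers in the results was not tested. Cumulus and granulosa markers stayed near 0 in all 8C groups, with highest sums of 2.43 to 4.32 TPM.

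Without Esrrb alone, none of the cholesterol genes passed the test at 8C. In mz_EKO embryos 0 of 27 were called by limma and 0 had an unadjusted p under 0.05, where 1 of 10876 genes (0.00919%) was called and 257 had an unadjusted p under 0.05. Fdft1 stood at 85.4, 196 and 316 TPM as lowest, median and highest in 10 mz_EKO embryos, and Npc2 had a fold change of 0.01 (95% interval -0.17 to 0.19).

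Compared directly, mz_NrKO differed from mz_EKO in 9 of 27 genes, 2 higher and 7 lower, where 22.7% of all genes were called (10.9% higher and 11.8% lower). Fdft1 differed the most (-1.89 ± 0.25, adjusted p = 1.93e-07), with all mz_NrKO embryos at or below 60.5 TPM and all mz_EKO embryos at or above 85.4 TPM. No mz_EKO embryo was collected on 15 July, the date of 3 of the 10 mz_NrKO embryos, so these ranges mix date with genotype. On 8 March, Fdft1 ran from 39.7 to 60.5 TPM in 6 mz_NrKO embryos and from 97.8 to 315.8 TPM in 9 mz_EKO embryos. The share of all genes whose groups did not overlap was not computed for this comparison. Msmo1 (-1.04), Lss (-1.35), Mvd (-0.90), Scap (-0.96), Scarb1 (-1.56) and Stard4 (-1.65) were lower as well. Of these, Mvd and Scap lost the call in 3 of 7 alternative settings, and Lss, Scarb1 and Stard4 in 1 each (Lss at -0.52 in the UMI reads). Srebf2 (1.67 ± 0.40, adjusted p = 0.0015) and Cyp51 (1.10 ± 0.36, adjusted p = 0.022) were higher. Cyp51 had medians of 12.1 TPM (3.90 to 27.9) in mz_NrKO and 7.53 TPM (2.46 to 17.8) in mz_EKO over all dates. On 8 March its medians were 23.0 and 7.15 TPM in the same order. It was not called without the date factor (adjusted p = 0.256) or in the UMI reads (adjusted p = 0.211).

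In embryos without both receptors genes of the pathway moved in both directions. Of 27 genes tested in mz_DKO against mz_DHet, 7 were higher and 6 lower, a share of 48.1% where 33.7% of all genes were called (18.9% higher and 14.8% lower), with a median log2 fold change of -0.14 against 0.05 over all genes. Among 17 synthesis genes 4 were higher and 5 lower, of 5 regulators 2 were higher and 1 lower, and of 5 handling genes 1 was higher. The controls are the same 21 embryos as in the mz_NrKO comparison. Here too the genes were chosen with earlier results known, so no excess over all genes can be read from the share called.

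Lower in mz_DKO were Fdft1, Msmo1, Mvd, Lss, Pmvk and Scap. Fdft1 had 29.7, 53.5 and 117 TPM as lowest, median and highest values, all 10 below the control median of 138 TPM, with a fold change of -1.51 ± 0.21 (adjusted p = 1.15e-07). Msmo1 had 63.1, 110.0 and 168 TPM against 128, 160.4 and 357 TPM in controls (-0.73 ± 0.16, adjusted p = 0.000248). For Fdft1 the overlap lay wholly below the control median, and for Msmo1 2 of the 10 mutants lay above it. Mvd (-1.14 ± 0.25, adjusted p = 0.000301) had a median of 13.8 TPM (4.94 to 52.1) and Lss (-0.92 ± 0.28, adjusted p = 0.0069) one of 22.8 TPM (9.75 to 41.9). Pmvk, the phosphomevalonate kinase, had medians of 35.9 TPM (3.00 to 71.7) in mz_DHet and 16.7 TPM (6.52 to 39.3) in mz_DKO (-0.94 ± 0.34, adjusted p = 0.025), a call lost in 3 of 7 alternative settings (adjusted p up to 0.071). Scap was at 18.1 TPM (10.0 to 26.9) with a fold change of -0.64 ± 0.24 (adjusted p = 0.034), a call lost in 6 of 7 alternative settings.

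Higher in mz_DKO were Soat1, Sqle, Srebf2, Dhcr7, Insig1, Lbr and Fdps. Soat1 had 12.1, 30.6 and 64.4 TPM as lowest, median and highest in mz_DHet and 39.3, 105 and 288 TPM in mz_DKO embryos, all 10 above the control median (1.59 ± 0.27, 3.00-fold, adjusted p = 4.48e-06). The UMI reads gave 3.05 for this gene. Sqle had 15.3, 35.9 and 120.1 TPM in mz_DHet and 72.8, 107 and 207 TPM in mz_DKO embryos, again all 10 above the control median (1.496 ± 0.29, adjusted p = 5.22e-05). The 2 controls of 23 February stood at 107 and 120.1 TPM, and the other 19 did not exceed 72.9 TPM. Lbr ran from 464 to 762 TPM in mz_DKO, with a median of 618 TPM against 354 TPM in controls (0.77 ± 0.17, adjusted p = 0.000378). Insig1 had a median of 125 TPM (67.5 to 245.5) against 62.1 TPM (31.2 to 143.9), a fold change of 0.77 ± 0.21 (adjusted p = 0.0034). Fdps had one of 658 TPM (364 to 895) against 374 TPM (196 to 887), a fold change of 0.57 ± 0.21 (adjusted p = 0.026). Srebf2 had a median of 40.4 TPM (23.3 to 100.5) and a fold change of 1.41 ± 0.34 (adjusted p = 0.000725). No mz_DKO embryo was collected on 15 July, and on 8 March alone the fold change of Srebf2 was 1.58. Dhcr7 had a median of 158 TPM (44.5 to 286.8) against 70.9 TPM (8.39 to 134.4), a fold change of 0.91 ± 0.23 (adjusted p = 0.0018) that was -0.31 in the UMI reads (adjusted p = 0.503).

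**Figure D3:**
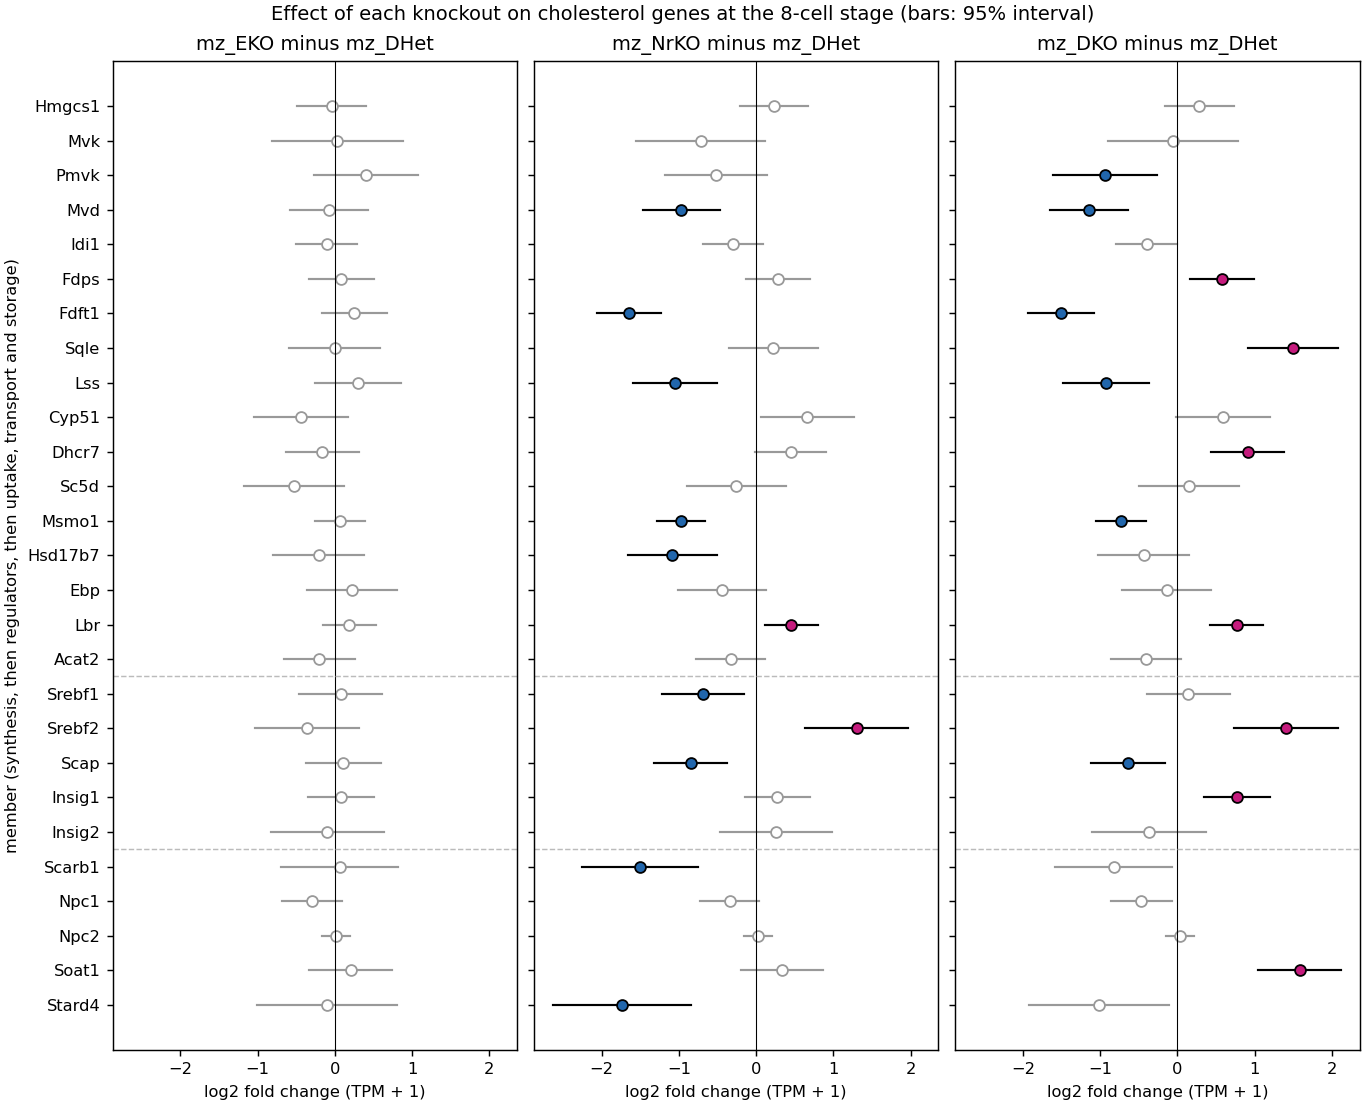
Log2 fold change, on TPM + 1, of each of the 27 genes tested at 8C in mz_EKO, mz_NrKO and mz_DKO embryos against the same 21 mz_DHet embryos, with bars for the 95% interval; filled points passed an adjusted p of 0.05 (blue lower, pink higher). No point is filled in mz_EKO, 11 are in mz_NrKO and 13 in mz_DKO.

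The difference between mz_DKO and mz_NrKO was tested directly, and 0 of 27 genes passed the threshold by limma, where 0.147% of all genes did; 3 of the 27 had an unadjusted p under 0.05. These were Soat1 (1.25, 95% interval 0.61 to 1.89, adjusted p = 0.086), Sqle (1.27, 0.58 to 1.97, adjusted p = 0.113) and Srebf1 (0.83, 0.19 to 1.46, adjusted p = 0.367). The calls of Soat1 and Sqle in mz_DKO only are thus not shown to differ from mz_NrKO. In the UMI reads the medians of Soat1 were 19.8 TPM in mz_DHet, 76.3 TPM in 5 mz_NrKO and 158 TPM in 9 mz_DKO embryos, and those of Sqle 2.57, 7.99 and 13.3 TPM.

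In the authors' deposited table, at a false discovery rate under 0.1, 9 of the 30 genes were lower and 4 higher in mz_NrKO at 8C, 9 lower and 7 higher in mz_DKO and none in mz_EKO. These counts and those below use that rate alone, without the authors' further thresholds on TPM and fold change. The share of all genes at that rate was not computed, so no excess over all genes can be read from these counts. The authors' deposited table gives log2 fold changes of -1.83 for Fdft1 and 1.66 for Srebf2 in mz_NrKO, and of 1.82 for Soat1 and 1.53 for Sqle in mz_DKO. At earlier stages the authors' deposited table has calls at that rate where the limma fit has none: Fdft1 lower in L2C mz_DKO (-0.78), Lss lower in L2C z_NrKO (-0.90), Srebf2 higher (2.15) in 4C mz_NrKO and Srebf1 lower (-2.90) in 4C mz_EKO. In 4C mz_DKO the authors' deposited table has 2 lower (Fdft1 and Ebp) and 2 higher (Pmvk and Mvd). Against embryos with only wild-type or floxed alleles the authors' deposited table has 3 lower and 3 higher in E2C mz_NrKO, 1 lower in E2C m_NrKO (Hmgcs1) and 1 higher in NrKO oocytes (Lbr).

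At the earlier stages up to 4C except E2C, no knockout comparison had a gene called by limma. In 22 genes tested in MII oocytes, 29 at L2C and 28 at 4C, none was called in any knockout comparison, where the share of all genes called ran from 0 to 2.58% (0.212% in NrKO oocytes, 0.101% higher and 0.112% lower; 0.127% in L2C mz_NrKO and 0.141% in L2C mz_DKO, all lower; 0.099% in L2C z_NrKO, 0.00707% higher and 0.0919% lower; 0.675% in 4C mz_NrKO, 0.261% higher and 0.414% lower; and 2.58% in 4C mz_DKO embryos, 0.897% higher and 1.68% lower). At an unadjusted p under 0.05 there were 4 genes in oocytes, 3, 3, 4 and 2 in the L2C comparisons of mz_NrKO, mz_EKO, mz_DKO and z_NrKO, and 4, 2 and 5 in the 4C comparisons of mz_NrKO, mz_EKO and mz_DKO.

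Fdft1 was among those genes in all 4 comparisons at L2C. It had 252, 348 and 415 TPM as lowest, median and highest in 7 mz_DHet embryos, 128, 192 and 270 TPM in 10 mz_NrKO, 127, 183 and 237 TPM in 6 mz_DKO and 137, 224 and 260 TPM in 10 mz_EKO embryos. The mz_NrKO and mz_EKO ranges touched the lowest controls and the mz_DKO range lay below them. At L2C the share of all genes without overlap was not computed. With date in the fit the differences did not pass (-0.64, -0.80 and -0.51, adjusted p = 0.405, 0.115 and 0.741), and only 2 of the 7 controls shared the 8 March date with the mz_NrKO embryos. In z_NrKO embryos the median was 147 TPM against 272 TPM in z_NrHet (-0.60, adjusted p = 0.272). At 4C the control median of Fdft1 was 220 TPM (151 to 271). The 5 mz_NrKO embryos had 124, 190, 158, 193 and 144 TPM, all below that median. The 4 mz_EKO embryos had 260, 225, 216 and 222 TPM, around it. For mz_DKO the level was 112 TPM (78.3 to 224), with a fold change of -0.74 (adjusted p = 0.070).

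**Figure D4:**
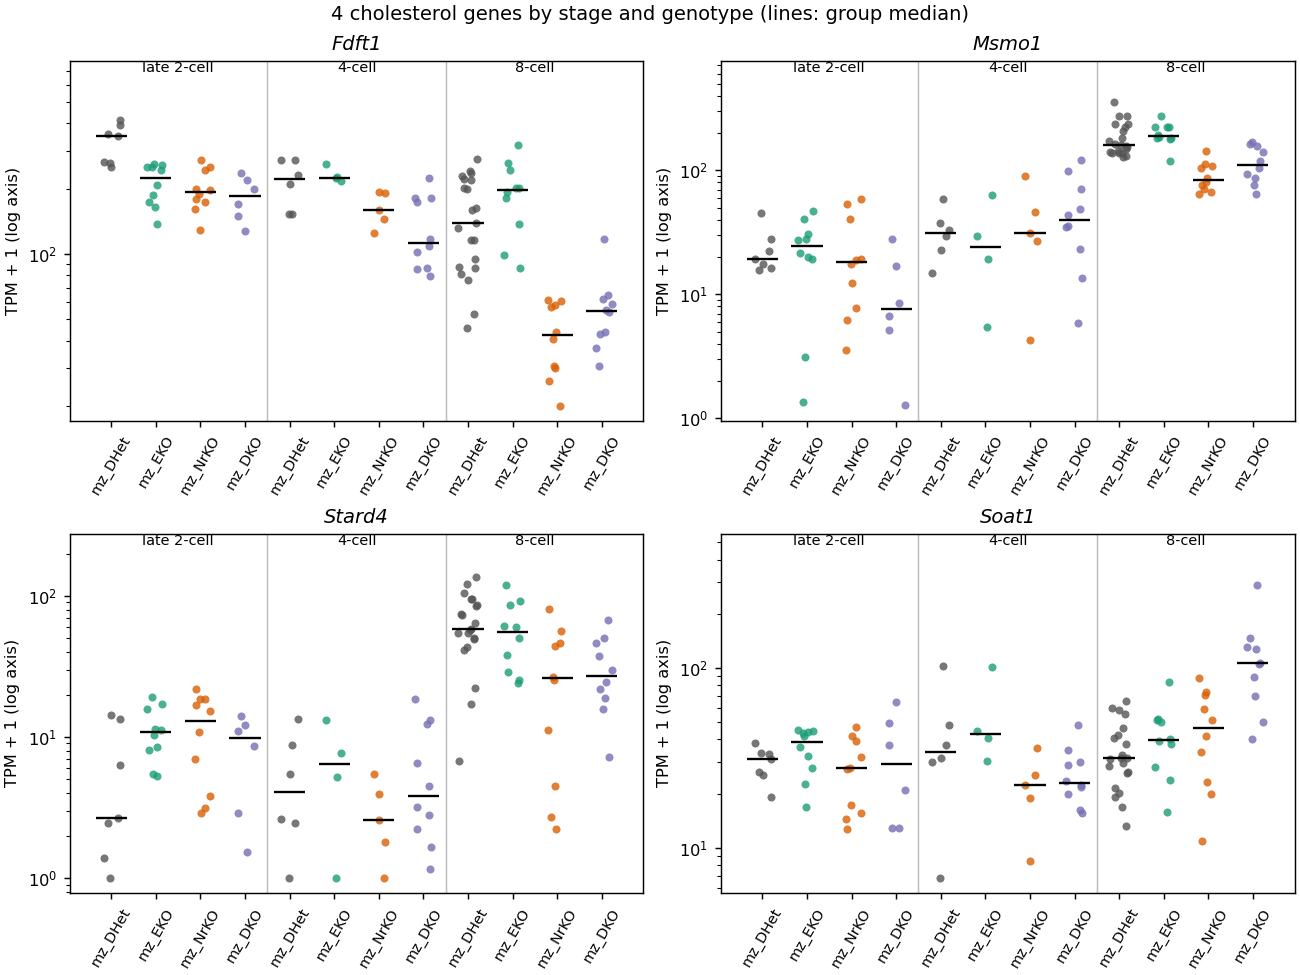
Each point is 1 embryo, as TPM + 1 on a log axis, at L2C, 4C and 8C for the 4 mz genotypes, with lines for the group median, for Fdft1, Msmo1, Stard4 and Soat1. Msmo1 and Stard4 have higher medians at 8C than at 4C in every genotype. Fdft1 has lower medians in mz_NrKO and mz_DKO than in mz_DHet at each stage, and the lowest of these are at 8C.

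The difference between stages was tested for the effect of the maternal and zygotic Nr5a2 knockout. Between 8C and 4C, 1 of 29 genes passed, where 1.41% of all genes did. The effect on Fdft1 was lower at 8C by -1.23 ± 0.34 (adjusted p = 0.040). This call was lost in 4 of 11 alternative settings (adjusted p up to 0.235). Among them were the fits without 4C mz_NrKO replicate 2 (-1.13, adjusted p = 0.131) and without replicate 4 (-1.18, adjusted p = 0.066). Between 8C and L2C, 1 of 29 passed, where 1.95% of all genes did: the effect on Stard4 was lower at 8C by -3.05 ± 0.86 (adjusted p = 0.037), a difference that was not called with a pseudocount of 0.1 TPM or with no filter on low values. At L2C Stard4 had a median of 12.0 TPM (1.90 to 20.7) in mz_NrKO and 1.69 TPM (0 to 13.4) in mz_DHet embryos, a fold change of 1.92 that was not called (adjusted p = 0.465).

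At E2C a single gene of 28 was called in mz_NrKO against mz_NrHet, where 5.17% of all genes were (0.667% higher and 4.5% lower). Mvk was lower by -1.42 ± 0.39 (adjusted p = 0.015), with a median of 0 TPM (0 to 8.86) in 22 mz_NrKO embryos and of 3.77 TPM (0 to 53.7) in 29 controls, and 20 of the 22 below the control median. It lay under the 10 TPM set for naming and was named after its values were seen. Without the embryo that stood apart its fold change was -1.40. It was called on 1 August alone (-1.63) but not on 7 November (-0.75) or 14 November (-2.44), and not against the mz_Nrpp embryos (-1.05, adjusted p = 0.230). Against mz_NrHet, 0 of 28 were called in m_NrKO (0.245% of all genes, 0.092% higher and 0.153% lower; 3 of the 28 at an unadjusted p under 0.05) and in z_NrKO embryos (0 of 13040 genes; 2 of the 28), nor in mz_NrKO against m_NrKO (0 of 13040 genes; 1 of the 28).

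Related genes outside the 30 were read from 2 further lists. Of 41 other sterol genes, 27 were tested at 8C, of which 3 were higher and 4 lower in mz_NrKO, 6 higher and 5 lower in mz_DKO and none called in mz_EKO. These are 7 and 11 of 27, where 28.3% and 33.7% of all genes were called. The smallest adjusted p in both knockouts was that of Osbpl2, an oxysterol-binding protein, which was lower in mz_NrKO (23.0 against 74.3 TPM; -1.79 ± 0.21, adjusted p = 8.34e-09) and in mz_DKO (25.9 TPM; -1.49 ± 0.21, adjusted p = 2.33e-07). Scp2, a sterol carrier protein, was also lower in both (-0.76 and -0.85). Of 14 genes of fatty acid synthesis, which share SREBP regulators with the pathway, 13 were tested; 3 were higher and 2 lower in mz_NrKO, 5 higher and 1 lower in mz_DKO and none called in mz_EKO, that is 5 and 6 of 13 beside the same 28.3% and 33.7%. Fasn, fatty acid synthase, was higher in both (768 ± 753 and 1073 ± 470.0 against 392 ± 404 TPM; 1.14 ± 0.25 and 1.24 ± 0.25), while Me1, malic enzyme, was lower in both (-0.999 and -0.786).

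By position, 4 of the 30 genes share mouse chromosome 1 with Nr5a2 (mm10, 136842571 to 136960448), namely Insig2, Soat1, Hsd17b7 and Lbr, at distances of 15.51, 19.46, 32.99 and 44.85 Mb. Npc2 lies 1.59 Mb from Esrrb on chromosome 12. Of the 4 on chromosome 1, Soat1 was called at 8C in mz_DKO (1.59), Hsd17b7 in mz_NrKO (-1.09) and Lbr in mz_NrKO (0.46) and mz_DKO (0.77), and Insig2 in no knockout (0.26 in mz_NrKO, -0.37 in mz_DKO). Npc2, the closest to a deleted gene, had fold changes of 0.02 in mz_NrKO, 0.01 in mz_EKO and 0.04 in mz_DKO.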

How the data were processed

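Polyadenylated RNA of single oocytes and embryos was read with a protocol derived from FLASH-seq, per the labels' protocols. The authors deposited TPM per gene for full-length reads and separately for UMI reads, together with the log2 fold change and the false discovery rate (an adjusted p-value) for each contrast they tested. Per the submitters' processing notes cutadapt, STAR, RSEM, DESeq2 and mm10 were used, with no versions given, and per the file headers the authors' calls required over 10 TPM in at least 1 sample, a fold change of 1.5 and an FDR under 0.1. TPM hold no read depth, and the precision of low values is therefore unknown. Columns summed to between 814735 and 995883 TPM after 65 rows without a gene name were left out.

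Groups were taken from the labels. log2(TPM + 1) was fitted in R 4.3.3 with limma 3.58.1 (data.table version 1.17.8), with trend, per stage over all its groups, with group and collection date as factors, on genes reaching 5 TPM in a number of libraries no smaller than the smallest group; tests were two-sided with Benjamini-Hochberg adjustment at 0.05. Steps between control stages used all stages without date, and stage differences L2C, 4C and 8C with date. The fit was tested on simulated data. Alternatives were a pseudocount of 0.1, no filter, median-of-ratios scaling, no date, single dates, the replicate number as a block, the UMI reads and leaving out libraries. Figures used Python 3.11.15, pandas 2.3.3, numpy 2.4.6 and matplotlib 3.10.9.

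The 30 genes and all lists were chosen with earlier results of these data known. Full values are given for genes called in a knockout comparison whose mean reached 10 TPM in either group and for the 4 highest in 8C controls; of the other lists, at most 4 genes a comparison with the smallest adjusted p. UMI samples of oocytes and E2C embryos were not analysed here.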

Additional observations from a re-analysis of the deposited data

Results flagged for a closer look

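Single embryos stood apart from their group in 8 of 54 combinations of gene and 8C knockout group. They were picked by the gap to the next TPM value, relative to the range (Dixon's rule). Its rate of about 1 in 20 by chance holds only for normally distributed values. TPM need not be so, and no excess over chance can be read from the count. Among mz_DKO embryos, replicate 10 was highest for Pmvk (39.3 TPM, next 22.8 TPM), Mvd (52.1 TPM, next 23.7 TPM) and Scarb1 (22.2 TPM, next 5.92 TPM). Replicate 5 was highest for Fdft1 (117 TPM, next 63.7 TPM) and replicate 1 for Soat1 (288 TPM, next 145 TPM). Among mz_EKO embryos, replicate 4 was lowest for Mvd (15.5 TPM, next 27.7 TPM) and highest for Soat1 (82.8 TPM, next 50.7 TPM), and replicate 1 was highest for Srebf2 (55.9 TPM, next 28.4 TPM).

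The effect of the maternal and zygotic Nr5a2 knockout differed between stages for 2 genes in a direct test of the difference. For Stard4 the effect at 8C was lower than at L2C by -3.05 on the log2 scale, and for Fdft1 the effect at 8C was lower than at 4C by -1.23. The call was lost in 2 of 11 alternative settings for Stard4 and in 4 of 11 for Fdft1.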

How the results depend on the processing

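Of 178 alternative values of counts of called genes, 156 stayed within 1.5 times and 22 moved; of 530 alternative values of single genes, 449 kept their direction and call, 77 lost the call and 4 reversed. The reversed values were Srebf1 in 8C mz_NrKO in the UMI reads (0.0099), Srebf2 (-0.093) and Stard4 (1.05) in 8C mz_NrKO on 15 July alone and Dhcr7 in 8C mz_DKO in the UMI reads (-0.31). In 8C mz_NrKO, 11 calls became 6 with the replicate block and 1 on 15 July alone, a date with 7 embryos of the comparison. In NrKO oocytes 5 June alone gave 1 call. At E2C, the 1 call in mz_NrKO became 2 with median-of-ratios scaling, 2 without date and 2 without mz_NrKO replicate 1, and 0 against mz_Nrpp and 0 on 14 November alone, while m_NrKO had 1 with median-of-ratios scaling, 1 without mz_NrKO replicate 1 and 2 on 7 November alone. Without date, L2C gave 3 calls in mz_NrKO, 1 in mz_EKO and 1 in mz_DKO. The step from L2C to 4C had 0 calls with a pseudocount of 0.1. The difference between 8C and L2C had 0 with that pseudocount, 0 with no filter and 6 without date, and that between 8C and 4C had 0 with the replicate block, 2 in the UMI reads and 0 to 1 when leaving out one 4C mz_NrKO embryo at a time.

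Replicate numbers shared between groups did not pair the samples: the median correlation of same-numbered samples was between -0.05 and 0.01 per stage, and 8 of 60 pairs at 8C exceeded 0.1. All 6 calls of the block in 8C mz_NrKO were among the 11. Depth is unknown, so genes under about 10 TPM have unknown counting error, and oocytes and E2C embryos share no collection date with each other or with later stages. The cause of the other changes was not tested.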
